A study of Mus musculus with 9 samples.

Results

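The p53 pathway and the Cdkn2a locus were followed through 10 mouse genes: Trp53, Mdm2, Cdkn2a, Cdkn1a, Ccng1, Zmat3, Bbc3, Trp53inp1, Phlda3 and Sesn2. Members were taken by exact gene symbol from the platform annotation, and 9 of the 10, among 18193 genes with a probe set of their own, were found on 16 probe sets. Trp53 itself was not analysed here, so the pathway was read through the regulators and targets of p53 and not through its own transcript. RNA from frozen spleen was hybridised to 1-colour Affymetrix mouse arrays, 1 array per sample. The 2 groups were 5 splenic lymphomas of mice carrying a Sca1-MALT1 transgene and 4 spleens of wild-type mice given as healthy controls. The labels give no age, strain, sex or treatment for either group, and do not say which cells express the transgene. Sca1 is a surface marker of blood stem and progenitor cells, and MALT1 is a signalling protein of the antigen receptor route to NF-kB.

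p53 is a transcription factor that stops the cell cycle or triggers cell death after DNA damage and other stress. Its level is held down by Mdm2, a ubiquitin ligase that is also a p53 target, and the Arf protein from the Cdkn2a locus blocks Mdm2. The other product of that locus, the Ink4a protein, inhibits the kinases that inactivate the retinoblastoma protein. In lymphoma models of the mouse this pair of tumour suppressor routes is often switched off, and in tissues under oncogenic or replicative stress the locus is often switched on.

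Of 12 annotated start windows found for 8 members, those of Cdkn1a and Ccng1 held letters like the p53 response element. Each window runs from 250 bases before to 50 bases after a RefSeq transcript start of build GRCm38.p6. It was searched for pairs of the p53 consensus decamer, which equals its own reverse complement, with 0 to 13 bases between the decamers and at most 1 mismatch over a pair. Such a pair was present in 206 of 32851 windows of the same length (0.627%), and in 24 windows (0.0731%) with no mismatch. The upstream Cdkn1a window (chr17:29090729-29091028, plus strand) held 2 overlapping pairs, one at -51 to -32 from the start with 1 mismatch and no spacer and one at -73 to -42 with no mismatch and a spacer of 12 bases. The Ccng1 window (chr11:40755237-40755536, minus strand) held 1 pair, at -195 to -176, with 1 mismatch and no spacer. Both are shown because they were the member windows with a pair, and both genes were far higher in 1 lymphoma, as described below. Capitals mark the decamers of the counted pairs.
Cdkn1a: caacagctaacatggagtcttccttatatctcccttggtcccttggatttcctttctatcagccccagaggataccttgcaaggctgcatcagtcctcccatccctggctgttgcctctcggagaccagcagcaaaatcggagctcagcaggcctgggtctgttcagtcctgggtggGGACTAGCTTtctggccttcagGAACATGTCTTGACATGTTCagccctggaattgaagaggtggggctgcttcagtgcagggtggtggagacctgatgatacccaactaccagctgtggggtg
Ccng1: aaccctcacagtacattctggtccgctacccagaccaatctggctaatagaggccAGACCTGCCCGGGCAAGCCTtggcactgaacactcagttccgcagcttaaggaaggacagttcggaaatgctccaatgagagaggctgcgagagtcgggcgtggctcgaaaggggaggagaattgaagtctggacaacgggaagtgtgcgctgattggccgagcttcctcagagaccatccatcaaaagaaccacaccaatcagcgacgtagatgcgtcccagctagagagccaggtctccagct
A match of letters is a description and not a measured binding site. The windows of Trp53, Mdm2, Cdkn2a, Bbc3, Phlda3 and Sesn2, and the second Cdkn1a window, held no pair within these limits. Trp53inp1 and Zmat3 had no window in the table used.

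The arrays differed in makeup beyond the labels. B-cell identity was present in both groups, with Cd79a, a chain of the B-cell receptor, between 10.44 and 11.92 in lymphoma and between 10.92 and 11.40 in wild-type on the log2 scale. Lymphomas 1 and 2 stood apart in erythroid genes, with list scores (the mean log2 difference of a list's genes from the wild-type mean) of 4.00 and 3.80, against -0.62 to 0.85 in the other lymphomas and -0.39 to 1.09 in wild-type. They stood apart in T-cell genes too, at -1.19 and -1.35, against -0.14 to 0.01 in the other lymphomas and -0.09 to 0.17 in wild-type. Red pulp macrophage scores were 0.95 to 1.69 in lymphoma and -0.19 to 0.08 in wild-type. Of the 6 macrophage genes 5 passed limma's adjusted threshold, as did 0.605% of all genes and no gene of the other marker lists. Neutrophil scores were -0.0022 to 5.90 in lymphoma and -0.36 to 0.39 in wild-type. Scores of the B-cell list were -1.01 to 0.07 in lymphoma and -0.05 to 0.04 in wild-type. All 4 measured B-cell genes had a negative difference, from -0.07 for Cd79a to -0.52 for Cd22 (limma adjusted p 0.282). Scores of the plasma cell list were -0.15 to 1.18 in lymphoma and -0.07 to 0.10 in wild-type, those of the endothelial list -0.46 to 0.54 in lymphoma and -0.21 to 0.22 in wild-type, and those of the fibroblast list -0.09 to 0.72 in lymphoma and -0.14 to 0.17 in wild-type. In bulk tissue, fewer cells of a type and less RNA per cell cannot be told apart.

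As a group comparison, no member passed. Limma called 0 of the 16 probe sets at an adjusted p under 0.05 over all 45037 probe sets, where it called 0.486% of all, 0.251% higher and 0.235% lower. Fitted without variance moderation it called 0 of the 16 but also 0 of all 45037. At an unadjusted p under 0.05 limma had 3 of the 16 higher in lymphoma (Cdkn2a, Bbc3 and Phlda3) and none lower, against 5.15% of all probe sets higher and 8.76% lower. Lymphoma and wild-type did not overlap for 2 of them, Cdkn2a and Phlda3, both higher in lymphoma, where 2.39% of all probe sets had this pattern and 4.08% the opposite one. The difference was positive for 14 and negative for 2 of the 16, with a median of 0.30, whereas 47.2% of all probe sets were positive and the median of all was -0.01. Probe sets of 1 gene share a transcript, so the 16 are not independent.

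**Figure D1:**
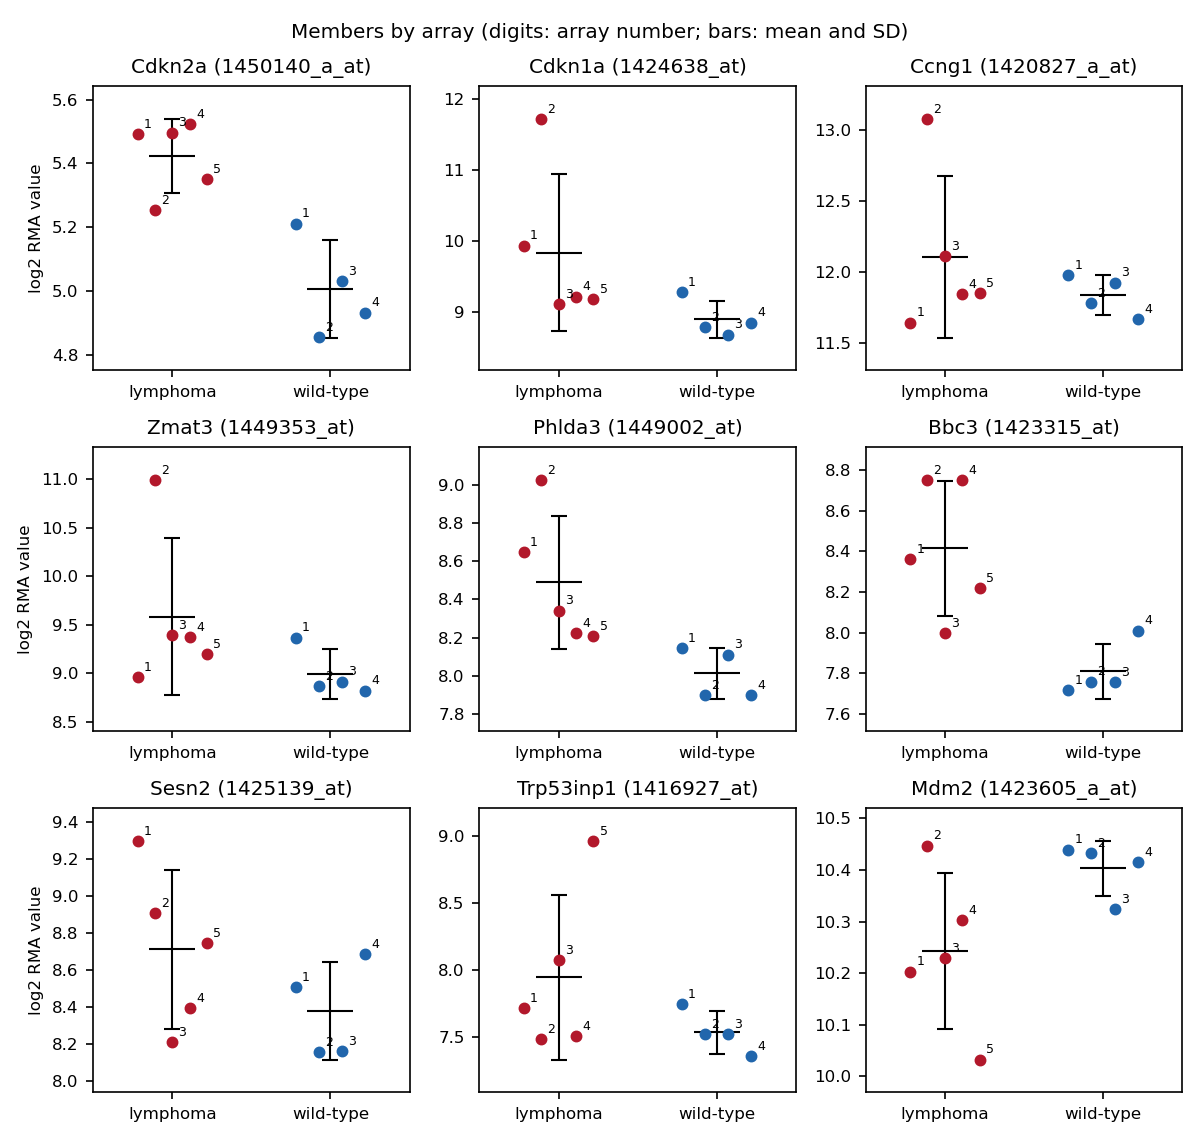
Log2 RMA value (y axis) of 1 probe set for each of 9 members, with lymphoma on the left and wild-type on the right; digits give the array number, bars the mean and SD, and each panel has its own scale. All 5 lymphomas lie above all 4 wild-type spleens for Cdkn2a and Phlda3, and lymphoma 2 stands far above the other 8 arrays for Cdkn1a, Ccng1 and Zmat3.

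Cdkn2a was the member with the smallest p. Its 1 probe set stood at 5.49, 5.25, 5.50, 5.52 and 5.35 in lymphomas 1 to 5, against 5.21, 4.86, 5.03 and 4.93 in wild-type spleens 1 to 4. Every lymphoma lay above every wild-type spleen, although lymphoma 2 and wild-type spleen 1 were only slightly apart. The means were 5.42 ± 0.12 in lymphoma (SD, n = 5) and 5.01 ± 0.15 in wild-type (SD, n = 4), a log2 difference of 0.42 (SE 0.095) or 1.33-fold. The limma adjusted p was 0.102, and the exact two-sided permutation p was 0.00794, unadjusted and the smallest that 126 splits of 9 arrays can give. The probe set was dim, with a mean of 5.24 over all arrays, below the median of 6.94 of all probe set means. RMA compresses differences in that range, and the sources used here do not say which of the locus's transcripts the probes read. With 1 array left out the difference lay between 0.36 and 0.48 and the adjusted p between 0.0606 and 0.321. The macrophage score was higher in every lymphoma as well, and its part in the Cdkn2a difference was not tested.

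The relatives of Ink4a were also higher in lymphoma without passing. Cdkn2b, its neighbour in the genome, stood at 8.21, 8.22, 8.33, 8.90 and 8.31 in the lymphomas, against 8.14, 7.96, 7.97 and 8.04 in wild-type, with no overlap and a difference of 0.36 (limma adjusted p 0.287). Cdkn2d stood at 9.9996, 9.52, 9.34, 9.26 and 9.45 in the lymphomas, against 9.16, 9.07, 9.09 and 9.01 in wild-type, again with no overlap (0.43, adjusted p 0.214). Of 18 measured genes of the retinoblastoma arm these 2 were higher without overlap, where 599 of all 18193 genes had this pattern. Both were higher in all 5 lymphomas, as was Cdkn2a, but unevenly, with Cdkn2b highest in lymphoma 4 and Cdkn2d in lymphoma 1. Cdkn2c was different, at 10.68, 10.63, 9.47, 9.06 and 9.54 in the lymphomas, against 9.25, 8.96, 8.84 and 8.91 in wild-type. Its difference of 0.89 (adjusted p 0.272) therefore drew mainly on lymphomas 1 and 2, and was 0.37 without them. These 2 stood apart in erythroid, T-cell and mitotic genes, and the part of those genes in the Cdkn2c difference was not tested. Cdkn2b and Cdkn2d were singled out after their values were seen.

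Mdm2 had no common direction over its 3 probe sets. Its brightest probe set stood at 10.20, 10.45, 10.23, 10.30 and 10.03 in the lymphomas, against 10.44, 10.43, 10.32 and 10.42 in wild-type, so 4 of 5 lymphomas lay below all wild-type spleens (-0.16, limma adjusted p 0.46). A second probe set pointed the other way, with 9.61, 9.03, 9.18, 9.56 and 9.78 in the lymphomas, against 9.35, 9.30, 9.10 and 9.25 in wild-type (0.18, adjusted p 0.639). The last was dim, between 5.13 and 5.71 in lymphoma and between 5.30 and 5.62 in wild-type. Lymphoma 2, which was highest in most of the other targets, was lowest of the 9 arrays on those 2 probe sets and highest on the first, by only 0.0076. The 3 probe sets disagree, and no direction for Mdm2 can be given.

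Cdkn1a encodes p21, the inhibitor of cyclin-dependent kinases through which p53 stops the cell cycle. On its brighter probe set it stood at 9.93, 11.72, 9.11, 9.21 and 9.18 in the lymphomas, against 9.27, 8.78, 8.68 and 8.85 in wild-type. On the other it stood at 8.02, 9.86, 7.81, 7.90 and 7.51 in the lymphomas, against 7.76, 7.24, 7.25 and 7.41 in wild-type. Both probe sets show the same picture: lymphoma 2 far above all other arrays, lymphoma 1 next, and lymphomas 3 to 5 close to wild-type spleen 1. Lymphoma 2 exceeded the wild-type mean by 2.82 and 2.44, or 7.08-fold and 5.44-fold. The group differences were 0.94 (SE 0.49, limma adjusted p 0.437) and 0.81 (SE 0.42, adjusted p 0.431), and without lymphoma 2 they were 0.46 and 0.40.

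Ccng1, the cyclin G1 gene and a classic p53 target that feeds back on Mdm2, was far above all other arrays in lymphoma 2 alone. Its brightest probe set stood at 11.64, 13.08, 12.11, 11.85 and 11.85 in the lymphomas, against 11.98, 11.78, 11.93 and 11.67 in wild-type. The other 2 probe sets gave 11.06 and 10.65 in lymphoma 2, where the remaining lymphomas lay at 9.82 to 10.11 and 8.86 to 9.42 and wild-type at 9.98 to 10.08 and 9.10 to 9.41. All 3 probe sets thus put lymphoma 2 above the wild-type mean, by 1.24, 1.04 and 1.40 on the log2 scale. The group differences were 0.27, 0.17 and 0.15, with limma adjusted p-values of 0.691, 0.783 and 0.877. Without lymphoma 2 they were 0.02, -0.05 and -0.16.

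Zmat3, a zinc finger protein that binds RNA, had the same pattern. It stood at 8.96, 10.997, 9.40, 9.37 and 9.19 in the lymphomas, against 9.37, 8.86, 8.91 and 8.82 in wild-type. Lymphoma 2 exceeded the wild-type mean 4.02-fold, whereas the other lymphomas lay within or just beyond the wild-type range. The group difference was 0.59 (SE 0.37, limma adjusted p 0.51), and 0.24 without lymphoma 2.

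Bbc3 and Phlda3 were the target members with an unadjusted p under 0.05. Bbc3 encodes Puma, a BH3-only protein that triggers apoptosis. It stood at 8.36, 8.75, 7.998, 8.75 and 8.22 in the lymphomas, against 7.72, 7.76, 7.76 and 8.01 in wild-type. Lymphomas 2 and 4 were equally high, and only lymphoma 3 lay below the highest wild-type spleen. The difference was 0.61 (SE 0.16), or 1.52-fold, with a limma adjusted p of 0.146 and an exact permutation p of 0.0238, unadjusted. Phlda3, which restrains the kinase Akt, stood at 8.65, 9.02, 8.34, 8.22 and 8.21 in the lymphomas, against 8.15, 7.90, 8.11 and 7.90 in wild-type. Lymphoma 2 was again highest, and even the lowest lymphoma was just above the highest wild-type spleen. The difference was 0.47 (SE 0.17), or 1.39-fold, with a limma adjusted p of 0.253 and an exact permutation p of 0.0238, unadjusted. Macrophage scores were higher in all 5 lymphomas too, and their part in either difference was not tested.

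Trp53inp1 was highest in lymphoma 5, and Sesn2 on its brighter probe set in lymphoma 1. Trp53inp1 encodes a stress protein that helps p53 and acts in autophagy. Its dimmer probe set stood at 7.71, 7.48, 8.07, 7.50 and 8.97 in the lymphomas, against 7.74, 7.52, 7.52 and 7.35 in wild-type (0.41, limma adjusted p 0.552). Its brighter one stood at 12.79, 12.83, 13.34, 12.57 and 13.60 in the lymphomas, against 13.08, 13.12, 13.03 and 12.88 in wild-type (0.00, adjusted p 0.999). Lymphomas 5 and 3 were the highest on both, and lymphomas 1, 2 and 4 were at or below wild-type level. Plasma cell scores were 0.86, 0.17, 0.95, -0.15 and 1.18 in lymphomas 1 to 5. Their part in the Trp53inp1 values was not tested. Sesn2, a sestrin that restrains the growth kinase complex mTORC1 under stress, stood at 9.30, 8.91, 8.21, 8.39 and 8.75 in the lymphomas, against 8.51, 8.16, 8.16 and 8.69 in wild-type (0.33, adjusted p 0.533). A second Sesn2 probe set was nearly flat, between 8.12 and 8.22 in lymphoma, with lymphoma 2 highest, and between 8.002 and 8.21 in wild-type. Lymphomas 1, 2 and 5 lay above every wild-type spleen on the first Sesn2 probe set, so their height rests on 1 probe set.

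**Figure D2:**
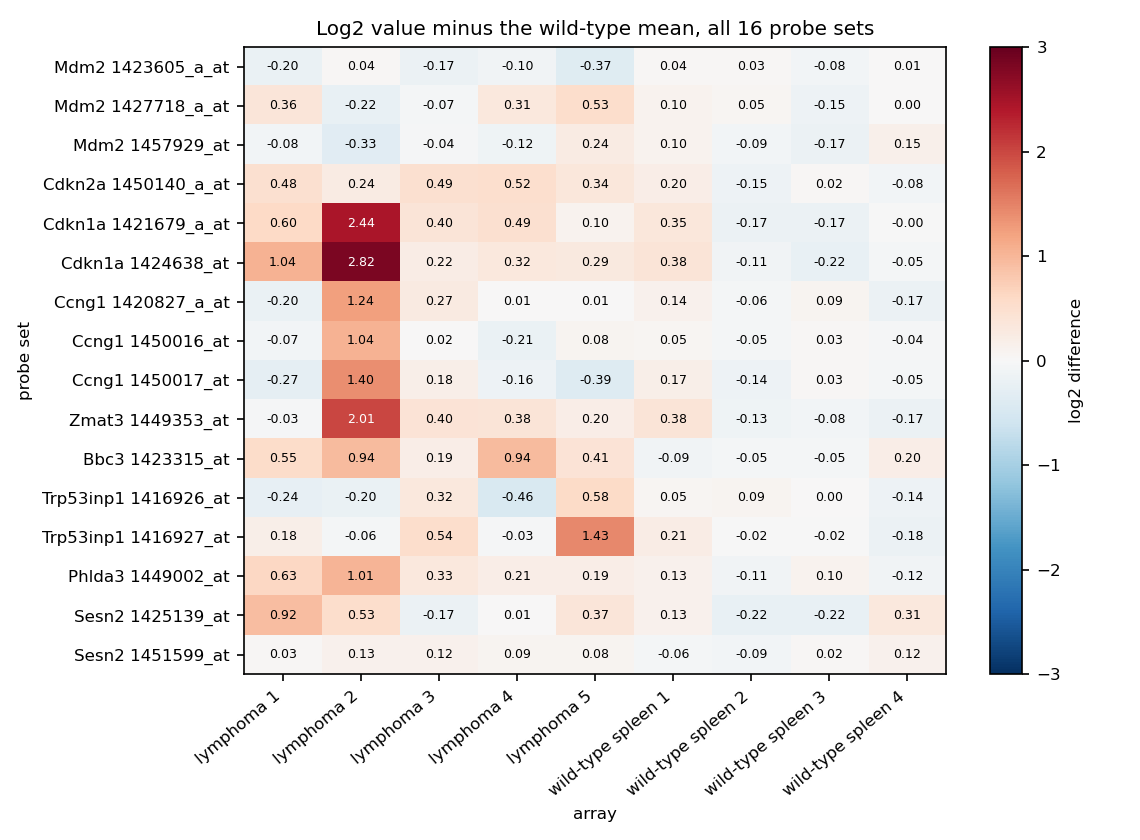
Log2 value minus the mean of the 4 wild-type spleens for each of the 16 member probe sets (rows) in each array (columns, lymphomas on the left), with the value printed in each cell. The column of lymphoma 2 holds the 6 probe sets of Cdkn1a, Ccng1 and Zmat3 at 1.04 to 2.82, lymphoma 5 the highest Trp53inp1 values, and the row of Cdkn2a lies between 0.24 and 0.52 in the 5 lymphomas.

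Averaged over the 8 target members (all but Trp53 and Cdkn2a), the target score was 0.31, 1.05, 0.17, 0.16 and 0.21 in lymphomas 1 to 5, against 0.14, -0.07, -0.06 and -0.02 in wild-type spleens 1 to 4. Lymphoma 2 thus carried most of the signal, and lymphomas 3 and 4 were hardly above wild-type spleen 1. Lymphoma 2 lay above every wild-type spleen in 7 of the 8 targets, the exception being Trp53inp1, and lymphomas 1, 3, 4 and 5 in 4, 4, 3 and 4. The 7 include Mdm2, by 0.0076 on its brightest probe set, although lymphoma 2 was the lowest array on the other 2. No share of all genes is given for these counts, so they only describe the members. Of the 16 member probe sets 9 had their highest value in lymphoma 2, which held the highest value for 13.995% of all probe sets. It exceeded every other array by at least 1 log2 unit for 4 member probe sets and for 123 of all 45037 (0.273%). By this gap, among 18193 genes, Cdkn1a ranked 10, Zmat3 15, Ccng1 60 and Phlda3 442, whereas Mdm2 ranked 2566, Bbc3 2710, Sesn2 11666 and Trp53inp1 15728.

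**Figure D3:**
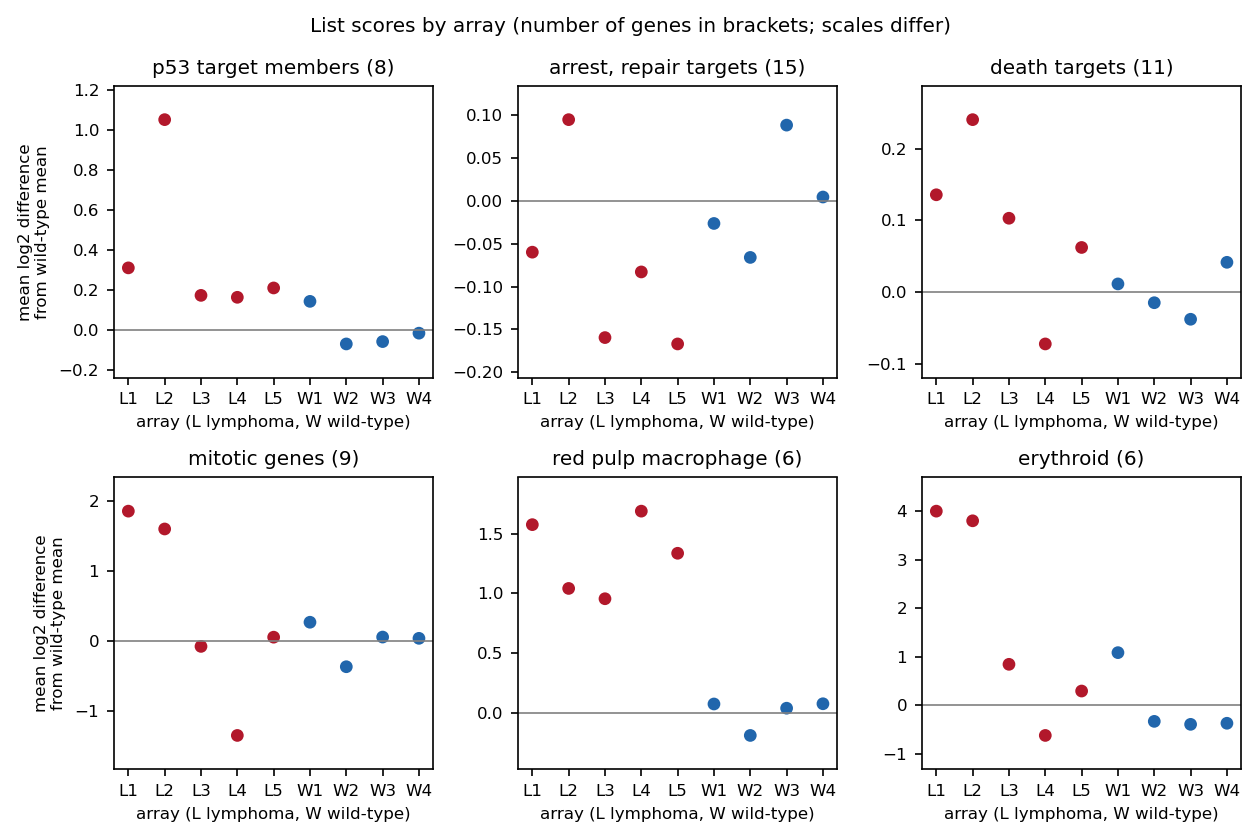
List scores per array (mean log2 difference from the wild-type mean, y axis, scales differ between panels), lymphomas L1 to L5 left of wild-type spleens W1 to W4. The p53 target score is highest in L2 at 1.05, whereas mitotic and erythroid scores are high in both L1 and L2 and the macrophage score in all 5 lymphomas.

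Lymphomas 1 and 2 shared high erythroid and mitotic scores, and their target scores were the highest of the 9 arrays, at 0.31 in lymphoma 1 and 1.05 in lymphoma 2. Mitotic genes that p21 is known to lower scored 1.85, 1.60, -0.08, -1.34 and 0.06 in the lymphomas, against -0.37 to 0.27 in wild-type. High Cdkn1a and high mitotic genes thus occurred in the same tissue in lymphoma 2. In lymphoma 1, Cdkn1a (1.04 over the wild-type mean on its brighter probe set), Sesn2 (0.92 on 1 of its 2 probe sets), Phlda3 (0.63) and Bbc3 (0.55) lay above every wild-type spleen, whereas Ccng1 and Zmat3 lay within or below the wild-type range. The part of the erythroid and mitotic scores in the target signal was not tested. In lymphoma 2, B-cell genes scored 0.07 against -1.01 in lymphoma 1. Within that list Cd79a stood at 0.70 and Cd22 at -0.63 in lymphoma 2, relative to the wild-type mean.

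Further targets were read from lists of 15 arrest and repair genes and 12 death genes, 11 of them measured. In limma 0 of 15 and 0 of 11 passed, where it called 0.605% of all genes. At an unadjusted limma p under 0.05, 1 arrest and repair gene was higher and 3 were lower. Of the death genes 2 were higher and none lower at that limit, where 6.79% of all genes were higher and 8.09% lower. Their median differences were -0.05 and 0.09, against 0.00 for all genes. The damage recognition gene Ddb2 stood at 9.60, 9.75, 10.40, 10.51 and 9.99 in the lymphomas, against 10.59, 10.72, 10.63 and 10.66 in wild-type (-0.60, limma adjusted p 0.19), and Ddit4, an inhibitor of mTORC1, at -0.58 (adjusted p 0.657). Eda2r, a death receptor gene, stood at 5.99, 6.66, 5.78, 6.01 and 5.87 in the lymphomas, against 5.61, 5.59, 5.67 and 5.71 in wild-type, on a dim probe set (0.42, adjusted p 0.294). The apoptosis gene Siva1 stood at 0.35 (adjusted p 0.274). Ddit4 varied widely in wild-type, between 9.75 and 11.85, and its difference was -0.16 without wild-type spleen 3. Btg2, an arrest and repair gene singled out afterwards, had the smallest limma p of both lists. It stood between 11.305 and 11.40 in lymphoma and between 11.54 and 11.86 in wild-type, with no overlap (-0.35, limma adjusted p 0.123). Without overlap, 2 of the 15 arrest and repair genes were lower and 1 of the 11 death genes was higher. Over all 18193 genes these were 735 and 599. Established p53 targets therefore pointed both ways in the group comparison, none of them passing.

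In lymphoma 2 the same lists split. It had the highest value of all arrays for 4 of 15 arrest and repair genes and for 4 of 11 death genes, against 14.6% of all genes. The arrest and repair genes were Rps27l, Ppm1d, Polk and Tigar, and the death genes Eda2r, Pmaip1, Aen and Pidd1, and all 8 names were picked for this pattern after their values were seen. Rps27l, on a probe set that may also read related sequences, exceeded the wild-type mean by 1.02, Ppm1d, a phosphatase that ends the p53 response, by 0.72, and Pmaip1, the Noxa gene, by 0.67. Sesn1, Ddb2 and Ddit4, also chosen afterwards apart from the last 2, stood at -0.98, -0.90 and -0.74 relative to that mean. For Ddit4, however, lymphoma 2 (9.84) lay within the wild-type range of 9.75 to 11.85. Ckap2 and Gadd45a, also singled out afterwards, exceeded it by 1.40 and 1.10, and both were highest in lymphoma 1. The list medians in lymphoma 2 were -0.01 and 0.13. Over the target members and both lists together, 13 of 34 genes (38.2%) were highest in lymphoma 2, and the members were part of that count.

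Of 15 measured regulators of p53 limma called 0, where it called 0.605% of all genes, and at an unadjusted p under 0.05 1 was higher and 5 were lower, where 6.79% of all genes were higher and 8.09% lower. The difference was positive for 3 and negative for 12, with a median of -0.14. Of all 18193 genes 9149 were positive, and their median was 0.00. The list holds both inhibitors and activators of p53, so these signs give no direction of p53 activity. Dmtf1, a transcription factor that activates the Arf promoter, stood at 9.69, 9.65, 10.09, 10.08 and 9.46 in the lymphomas, against 10.28, 10.42, 10.36 and 10.31 in wild-type, with no overlap (-0.55, limma adjusted p 0.121). Without overlap, 2 of the 15 regulators were lower and 1 was higher, against 735 and 599 of all 18193 genes. Cdkn2a was higher in the same lymphomas, on a dim probe set whose transcript is not known. A link between Dmtf1 and Cdkn2a was not tested. Chek1, the checkpoint kinase of S phase, stood at 9.78, 9.77, 8.01, 7.10 and 8.08 in the lymphomas, against 8.33, 7.59, 8.24 and 7.95 in wild-type (0.52, adjusted p 0.712). The p53 relatives Trp63 and Trp73 were dim in both groups, with differences of 0.02 and 0.18 (adjusted p 0.946 and 0.604), and limma called 0 of these 2, none at an unadjusted p under 0.05.

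Of 18 genes of the retinoblastoma arm limma also called 0 (0.605% of all genes), with 3 higher and none lower at an unadjusted p under 0.05 (6.79% and 8.09% of all genes). The difference was positive for 15 and negative for 3, with a median of 0.15, against 0.00 for all genes. Those with an unadjusted limma p under 0.05 were Cdkn2b, Cdkn2c and Cdkn2d. The list holds kinase inhibitors as well as cyclins and E2f genes, so its signs give no direction for the arm. E2f2, a cell cycle transcription factor, stood at 11.44, 10.97, 9.58, 8.50 and 9.71 in the lymphomas, against 9.68, 9.29, 9.32 and 9.45 in wild-type (0.61, limma adjusted p 0.645). All 9 measured mitotic genes were positive, with a median of 0.46, where 9149 of all 18193 genes were positive, and limma called 0, none at an unadjusted p under 0.05. Ccna2, the cyclin A gene, stood at 11.94, 11.67, 9.61, 8.20 and 9.77 in the lymphomas, against 9.97, 9.09, 9.46 and 9.48 in wild-type (0.74, adjusted p 0.682), and Mki67 at 0.54 (adjusted p 0.78). Without lymphomas 1 and 2, E2f2, Ccna2 and Mki67 were at -0.17, -0.31 and -0.48.

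**Figure D4:**
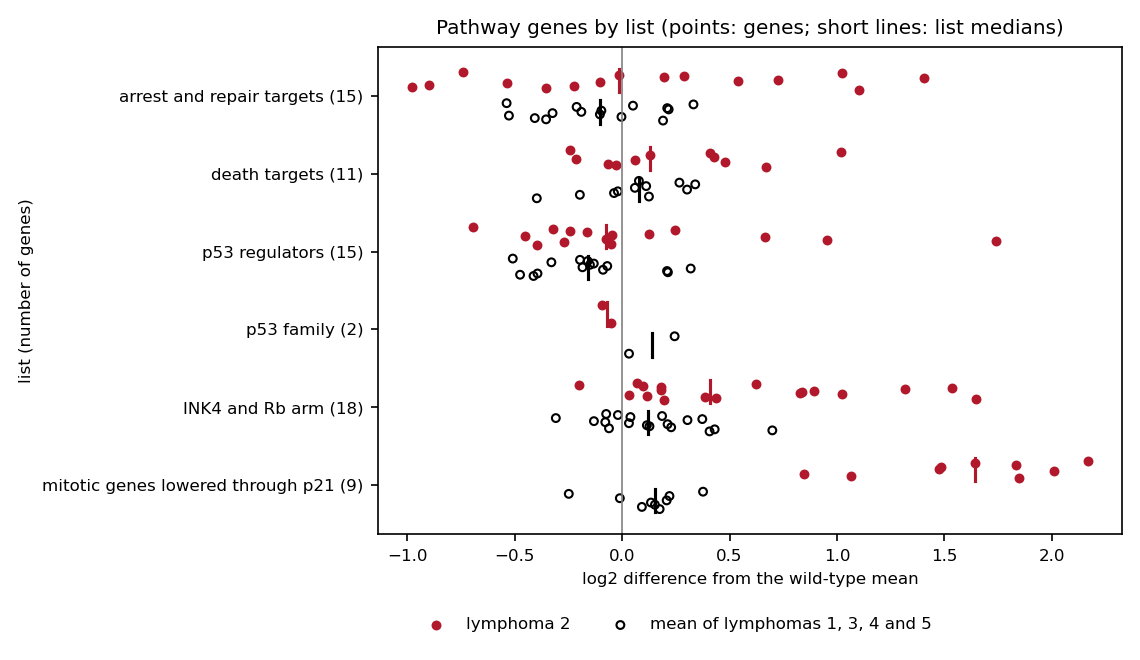
Log2 difference from the wild-type mean (x axis) of each measured pathway gene by list (y axis): filled points are lymphoma 2, open points the mean of the other 4 lymphomas, and short lines the list medians. Lymphoma 2 has medians of -0.01 for arrest and repair targets, 0.13 for death targets and 1.64 for mitotic genes, where the other lymphomas have -0.10, 0.08 and 0.15.

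The genes whose levels over the 9 arrays were most like Cdkn2a, by Pearson's r among 11146 brighter genes, were Mpeg1 (0.94), Klhl13 (0.93), Tmem98 (0.92), Bgn (0.92) and Vgll3 (0.92). Mpeg1 is a macrophage gene, and it passed, at 0.51 (limma adjusted p 0.0203), as did Vgll3, at 1.39 (adjusted p 0.0328). The most like Cdkn1a were Ssna1 (0.99), 6530402F18Rik (0.98), Wnt10a (0.98), Dpy30 (0.97) and the heat shock gene Hspa1a (0.97). The most like Ccng1 were the proteasome subunit gene Psmd6 (0.99), Apip (0.99), Hepacam2 (0.98), Wls (0.98) and Esr1 (0.97). These values were picked as the highest of many and carry no test. Without lymphoma 2 the r of the 5 genes most like Cdkn1a lay between 0.78 and 0.96, and that of the 5 most like Ccng1 between 0.73 and 0.94. Hspa1a stood at 7.56, 11.06, 7.03, 7.29 and 7.30 in the lymphomas, against 7.79, 6.92, 6.65 and 6.58 in wild-type, so lymphoma 2 was far apart in this stress gene as well as in Cdkn1a, and its part in the target signal was not tested.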

How the data were processed

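The values are log2 expression from RMA, made by the authors per the submitters' processing notes, with 1 array per sample. No version or setting is given in these notes. They were used as deposited. Array medians lay between 6.88 and 6.97. Of 45101 probe sets 64 controls were left out. Names came from the platform annotation: 932 probe sets with several symbols named no gene. The probe set with the highest mean stood for a gene in lists and scores.

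Lymphoma and wild-type entered 1 limma fit (version 3.58.1, R 4.3.3; two-sided, Benjamini-Hochberg over 45037 probe sets, threshold 0.05), without covariates, after a check on simulated data. Differences are lymphoma minus wild-type. No value here has a detection call, and the number of arrays limits precision. Whether each sample is a separate animal is not stated, so the p-values cover the spread among these arrays alone, which may be technical. A two-sided exact permutation test over all splits of the 9 arrays was added for single probe sets. Alternatives were centring, renormalization, array weights, a robust or intensity-trended prior, no variance moderation, probe sets that can read several transcripts left out, a filter on dim probe sets, 1 probe set per gene, a replicate block and arrays left out. The members, 6 pathway lists (73 genes, 70 measured) and 8 marker lists (42 genes, 40 measured) were chosen with earlier results of these data known. The text names every member, up to 4 called genes or else the 2 largest differences per pathway list, and the 5 genes most like each of Cdkn2a, Cdkn1a and Ccng1. Same-numbered arrays were checked for pairing and did not pair. Promoter windows came from RefSeq. Plots used matplotlib 3.10.9 (Python 3.11.15).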

Additional observations from a re-analysis of the deposited data

Results flagged for a closer look

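The member probe sets, the 12 list genes named by rule and the target score were checked, each in lymphoma and in wild-type. Of these 58 groups of arrays, 7 held an array far from the others of its group. The 7 cannot be set against chance, since the list genes were named for large differences, which 1 far array can enlarge. Any lymphoma stood apart in 7.58% of all probe sets, a share that leaves the wild-type groups out. The groups are not independent, since some probe sets share a gene and the target score is made from the members. In 5 of the 7 groups it was lymphoma 2 on the high side. These were Cdkn1a on its dimmer probe set (9.86), 1 Ccng1 probe set (11.06), Zmat3 (10.997), Eda2r (6.66) and the target score (1.05). In wild-type, spleen 1 was high for Zmat3 (9.37) and spleen 4 for Bbc3 (8.01). Over all 45037 probe sets, lymphoma 2 was apart and high for 434 (0.964%).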

How the results depend on the processing

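No setting tried called a member probe set or a pathway gene, which says nothing of stability, since several settings called few or none of all probe sets. The members at an unadjusted p under 0.05 numbered 3 of 16 as reported and 2 to 6 under the alternatives, with 6 without lymphoma 2 and 6 without lymphomas 3 and 5. The count called over all probe sets changed: 219 as reported, 821 with array weights, 130 with 1 probe set per gene, 5 with the replicate block, 935 without lymphomas 1 and 2, 69 without lymphomas 3 and 5, 0 (5586 at an unadjusted p under 0.05) without variance moderation, and 0 to 530 with 1 array left out. It was 0 without wild-type spleen 2 or 3, with 4191 and 4505 at an unadjusted p under 0.05, 18 and 14 when wild-type spleen 1 or 4 was left out, 48 when lymphoma 5 was, and 530 when lymphoma 2 was. With the replicate block 3 member probe sets had an unadjusted limma p under 0.05, as without it. Lymphoma 5 has no same-numbered wild-type array, so the differences with this block were those without lymphoma 5. The correlations of same-numbered deviations lay between -0.19 and 0.12. The target scores moved by less than 1 SD under both alternatives tried. Of 316 single values under the other settings 305 kept sign and side of the threshold and 11 changed sign, none of them called. Without lymphomas 1 and 2 these were 2 Ccng1 probe sets (-0.036 and -0.13), the dim Mdm2 probe set (0.028), Ccna2 (-0.31), Chek1 (-0.30), E2f2 (-0.17) and Mki67 (-0.48). The brighter Trp53inp1 probe set was at -0.0020 with arrays centred on the median, -0.011 with quantile normalization again, -0.14 with the replicate block and -0.30 without lymphomas 3 and 5. With 1 array left out, sign changes came for Ccng1 (-0.045 to 0.27 and -0.16 to 0.29), the dim Mdm2 probe set (-0.14 to 0.00046), Trp53inp1 (-0.14 to 0.12) and Trp63 (-0.0064 to 0.054). The dim filter removed Cdkn2a and 1 Mdm2 probe set. The cause of these shifts was not tested.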

Other observations

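By the gap between lymphoma 2 and the next array, the heat shock genes Hspa1a (3.27) and Hspa1b (2.39), which are near-identical copies, led all 18193 genes, and Cdkn1a and Zmat3 were among the first 15. Others there were Pigr (2.15), which carries antibodies across epithelia, Tnfsf4 (2.02), a ligand that stimulates T cells, Zbtb32 (1.95), a repressor made in activated lymphocytes, and the peptide hormone gene Adm (1.75). Hspa1b stood at 9.29, 12.45, 8.21, 9.80 and 9.42 in the lymphomas, against 10.05, 8.25, 8.60 and 8.12 in wild-type. The stress factor gene Atf3 exceeded the wild-type mean by 1.62 in lymphoma 2, and Myc by 1.46. Pigr and Tnfsf4 were on dim probe sets. The genes named from the first 15 were chosen after their values were seen, and others there are not named. Atf3 and Myc, outside the first 15, were added by name. None of the genes named here was called by limma in the group comparison (Hspa1a adjusted p 0.577, Hspa1b 0.57).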
